A study of Mus musculus with 2 samples.

Results

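Rab proteins are small GTPases that give each membrane compartment of the cell its identity. They are carried to a membrane in the GDP-bound form, are switched on there by an exchange factor, and in the GTP-bound form recruit the tethers, motors and lipid kinases that bud, move, dock or fuse vesicles, until a GTPase-activating protein switches them off. In the hepatocyte they sort albumin and lipoproteins through the endoplasmic reticulum (ER) and Golgi, carry receptors such as the LDL receptor through endosomes, deliver proteins to the bile canaliculus, and act on the surface of lipid droplets.

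Open chromatin at the genes for these proteins was examined by ATAC-seq, in which the Tn5 transposase inserts sequencing adaptors into DNA that is not covered by nucleosomes. The tissue was liver of C57BL/6 mice on normal chow at 8 weeks of age. *Mettl3* flox/flox mice, which carry loxP-flanked alleles of *Mettl3*, the catalytic subunit of the m6A RNA methyltransferase, served as controls (the control library), and *Mettl3*-HKO mice (*Mettl3* flox/flox Alb-Cre+/-) carry the same alleles together with a Cre recombinase driven by the albumin promoter, so that *Mettl3* is deleted in hepatocytes. Livers of 4 mice were pooled into 1 library per genotype, and nuclei of all cell types of the organ went into it. With 1 library in each of the 2 groups there is no replicate error and no test, and each interval given here is a 95% Clopper-Pearson interval that covers counting error only and takes reads as independent molecules, which PCR copies are not.

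The Rab genes were taken by symbol, as Rab followed by a number and at most a letter and a further digit. They held 93 of the 69549 regions of open chromatin that the authors made from the peaks of both libraries, and these belonged, by the closest transcription start site (TSS), to 50 of 27433 genes. For 43 of the 50 genes, out of 13163 genes in all, the centre of a region lay within 1000 bp of the TSS, and the strongest such region by summed RPM (reads scaled to a common library size) is called the promoter region. Only *Rab34* had a second region within this distance. A further 49 regions lay farther away and are called distal. They were spread over 31 genes, of which 7 (*Rab25*, *Rab27b*, *Rab28*, *Rab33a*, *Rab3c*, *Rab6b* and *Rab7b*) had no promoter region. RefSeq lists 59 genes on the same assembly whose symbol has this form, and 9 of them (*Rab15*, *Rab19*, *Rab26*, *Rab2b*, *Rab37*, *Rab39b*, *Rab3b*, *Rab44* and *Rab9b*) had no region under their symbol. The start of *Rab2b*, which acts between the ER and Golgi, was nevertheless open, because 1 region with 1346 counts in controls and 989 in *Mettl3*-HKO lay over it and was assigned to *Tox4*. No region lay over *Rab15*, *Rab19*, *Rab26*, *Rab39b*, *Rab3b* or *Rab9b*.

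The promoters that departed most from other promoters of the same signal can be read in sequence. RefSeq gives a promoter window that overlaps the region for 35 of the 43 genes (mouse assembly GRCm38.p6), and the 250 bases before the RefSeq start are shown for 8 of them, each written 5′ to 3′ on the strand of the gene. *Rab40b*, *Rab12* and *Rab32* are shown because they had the lowest values of all Rab promoters with a window, *Rab39*, *Rab21* and *Rab5b* because they had the highest, and *Rab5a* and *Rab5c* because they complete the *Rab5* trio. Capitals mark matches, on either strand, to 1 of 7 short motifs that are frequent in promoters, namely GGGCGG (the GC box), CCAAT (the CCAAT box), CACGTG (the E-box), CCGGAAG (the ETS core), TGACGTCA (the cAMP response element), GCATGCGC (the core of NRF1 sites) and AAGATGGC (the YY1 core). Matches of different motifs may share letters.
Rab40b (chr11:121388252-121388501, minus strand): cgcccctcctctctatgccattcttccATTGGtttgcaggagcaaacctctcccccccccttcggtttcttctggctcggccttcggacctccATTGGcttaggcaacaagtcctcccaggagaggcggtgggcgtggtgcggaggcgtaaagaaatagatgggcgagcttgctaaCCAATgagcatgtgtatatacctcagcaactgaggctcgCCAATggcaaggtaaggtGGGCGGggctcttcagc
Rab12 (chr17:66519671-66519920, minus strand): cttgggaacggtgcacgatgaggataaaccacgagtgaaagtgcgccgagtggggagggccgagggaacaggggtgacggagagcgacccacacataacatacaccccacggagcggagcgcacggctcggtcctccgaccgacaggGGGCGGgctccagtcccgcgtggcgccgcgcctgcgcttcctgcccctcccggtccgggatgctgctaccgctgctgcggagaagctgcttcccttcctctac
Rab32 (chr10:10558208-10558457, minus strand): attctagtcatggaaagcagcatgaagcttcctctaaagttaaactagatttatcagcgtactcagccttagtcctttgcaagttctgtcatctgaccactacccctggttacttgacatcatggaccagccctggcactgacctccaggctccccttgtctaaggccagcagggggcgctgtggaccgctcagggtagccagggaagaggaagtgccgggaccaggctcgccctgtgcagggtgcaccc
Rab39 (chr9:53706233-53706482, minus strand): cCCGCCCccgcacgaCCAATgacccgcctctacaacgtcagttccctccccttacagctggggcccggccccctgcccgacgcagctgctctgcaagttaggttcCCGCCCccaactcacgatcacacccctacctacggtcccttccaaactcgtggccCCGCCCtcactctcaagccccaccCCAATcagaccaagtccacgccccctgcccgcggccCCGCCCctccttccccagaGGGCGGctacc
Rab21 (chr10:115315592-115315841, minus strand): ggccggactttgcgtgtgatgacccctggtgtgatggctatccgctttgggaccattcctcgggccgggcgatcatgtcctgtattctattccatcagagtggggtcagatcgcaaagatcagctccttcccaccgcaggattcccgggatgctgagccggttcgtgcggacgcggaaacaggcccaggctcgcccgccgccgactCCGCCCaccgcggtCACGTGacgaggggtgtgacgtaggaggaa
Rab5a (chr17:53478984-53479233, plus strand): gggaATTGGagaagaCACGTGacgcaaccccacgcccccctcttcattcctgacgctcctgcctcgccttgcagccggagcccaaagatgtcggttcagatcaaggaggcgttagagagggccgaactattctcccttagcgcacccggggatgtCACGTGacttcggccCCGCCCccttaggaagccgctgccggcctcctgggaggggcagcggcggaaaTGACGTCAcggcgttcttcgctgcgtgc
Rab5b (chr10:128696269-128696518, minus strand): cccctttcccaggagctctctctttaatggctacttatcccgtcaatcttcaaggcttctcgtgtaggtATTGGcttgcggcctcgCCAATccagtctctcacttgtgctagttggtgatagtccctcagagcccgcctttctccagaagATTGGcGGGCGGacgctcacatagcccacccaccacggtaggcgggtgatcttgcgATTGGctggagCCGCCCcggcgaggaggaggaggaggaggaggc
Rab5c (chr11:100738216-100738465, minus strand): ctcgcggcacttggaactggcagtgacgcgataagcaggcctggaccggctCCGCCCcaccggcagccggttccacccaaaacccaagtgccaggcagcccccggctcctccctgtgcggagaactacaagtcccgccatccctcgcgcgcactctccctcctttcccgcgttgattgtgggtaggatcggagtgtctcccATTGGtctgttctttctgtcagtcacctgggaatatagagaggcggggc

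Both ends of the scale held GC boxes and CCAAT letters. *Rab40b*, the lowest, had 4 CCAAT matches and 1 GC box, while *Rab39*, the highest, had 2 CCAAT matches and 5 GC boxes. *Rab5b* had 4 CCAAT matches and 2 GC boxes, and *Rab32* had no match to any of the 7 motifs in this window. Each of the 3 *Rab5* windows held both GGGCGG and CCAAT, and *Rab5a* was the only Rab gene with TGACGTCA. Over the 35 windows, GGGCGG occurred in 74.3%, against 63.6% of the windows of 7521 other promoters of the same length. CCAAT occurred in 51.4% against 36.8%, CACGTG in 11.4% against 9.05%, CCGGAAG in 8.57% against 14.3%, GCATGCGC in 5.71% against 4.89%, AAGATGGC in 5.71% against 1.70%, and TGACGTCA in 2.86% against 3.03%. The median GC content was 62.8% in Rab windows and 60.8% in the others, and within the Rab windows it ran from 44% in *Rab29* to 78.8% in *Rab35*. Across the 35 Rab windows, which come from the same pair of libraries, Spearman's rho between GC content and the difference from promoters of the same signal was −0.02. A match to these letters describes the sequence and does not show that a factor binds there.

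Rab promoters were strongly open in both libraries. Levels are compared between genes as fold enrichment, a value of the authors that divides the read density of a region by the average density over the genome and so allows for region length. The median Rab promoter was enriched 34.5-fold in controls and 24.4-fold in *Mettl3*-HKO, against 26.8-fold and 17.3-fold for all promoters. By signal, 28 of the 43 lay in the upper 50% of all promoters and 10 in the upper 10%. A peak was called in both libraries at 42 of the 43 (87.1% of all promoters), and at *Rab42* only in *Mettl3*-HKO. The Rab regions spanned 267 to 1505 bp (median 1001 bp, against 808 bp for all promoters).

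**Figure D1:**
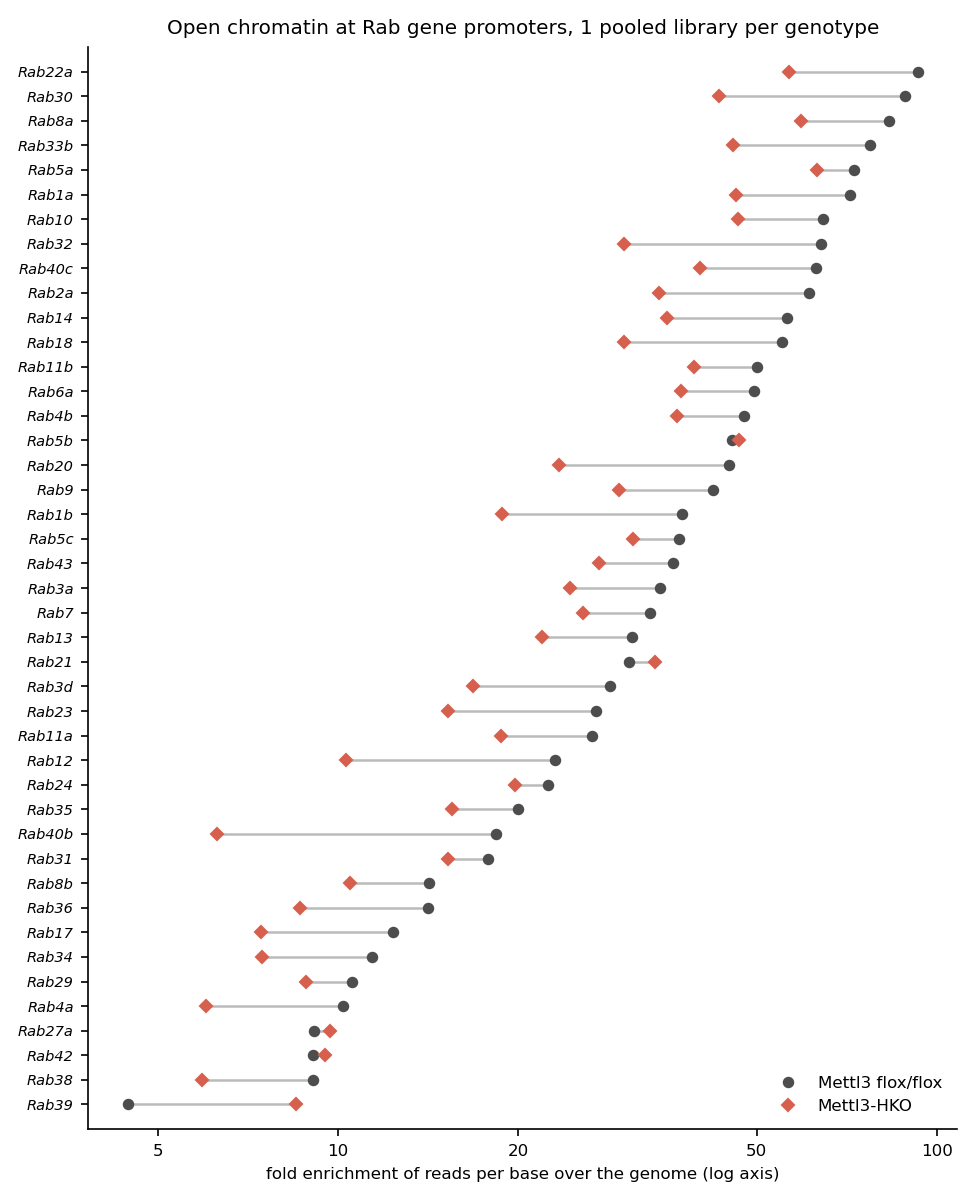
Fold enrichment of reads per base over the genome (horizontal log axis) at the promoter region of each of the 43 Rab genes, sorted by the control (*Mettl3* flox/flox) library (grey circles), with the *Mettl3*-HKO library as red diamonds and a line joining both values of a gene. *Rab22a* is highest at 92.8-fold and *Rab39* lowest at 4.46-fold in controls, and the diamond lies to the left of the circle for 38 of the 43 genes.

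Promoter regions were then counted by how widely a Rab gene is used. All 19 of 19 Rab genes listed as used by nearly every cell had a promoter region, with a median enrichment of 49.4-fold in controls, whereas 3 of 17 genes listed as restricted to neurons, epithelia or other special cells had one (*Rab3a*, *Rab38* and *Rab40b*), with a median of 18.4-fold. The other 21 Rab promoters were of genes on neither list, such as *Rab17* and *Rab27a*, with a median of 23.0-fold. Of all 59 RefSeq Rab genes, 43 had a promoter region. Both lists were drawn up with earlier results of these data known, so the contrast depends on which genes were listed. By summed RPM the strongest were *Rab5a*, *Rab1a*, *Rab8a*, *Rab30* and *Rab33b*, with 1572 to 2058 counts in controls and 955 to 1961 in *Mettl3*-HKO. The weakest were *Rab42*, *Rab34*, *Rab39*, *Rab27a* and *Rab38*, with 46 to 106 and 53 to 112 counts. *Rab27a*, which docks secretory granules and exosome-bearing bodies, and *Rab38*, which serves melanosomes, had enrichments of 9.11-fold and 9.07-fold in controls.

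Before the genotypes are compared, the scale has to be stated. The authors scaled each count plus 1 to the library total, 52826202 reads for controls and 58038305 for *Mettl3*-HKO. Of these reads, 31.7% and 22.3% lay in the regions, and the median promoter was at −0.57 on the log2 scale. Promoters of hepatocyte genes, such as *Alb* and *Apoa1*, were present for 8 of 8 markers (30.9-fold to 78.3-fold enriched in controls, summed counts 3619 and 2758). Their log2 ratios ran from −1.08 to 0.02 at *Alb*, with a median of −0.65. Those of endothelial genes, such as *Kdr* and *Stab2*, were present for 7 of 8, were low (1.88-fold to 7.52-fold) and had a median log2 ratio of 1.60, with summed counts of 153 and 400. At *Kdr*, *Cdh5*, *Lyve1*, *Stab2* and *Tek* a peak was called only in *Mettl3*-HKO. These regions entered through the library where they are higher, so the sign of their ratios was largely set beforehand. Macrophage markers had a promoter region for 2 of 8 genes (summed counts 53 and 112), without one at *Clec4f* or *Adgre1*, and cholangiocyte markers for 4 of 6 (746 and 643). The macrophage regions, at *C1qa* and *Cd14*, also had a peak only in *Mettl3*-HKO. A change in the number of cells of a type and a change of accessibility per cell cannot be told apart in these pooled nuclei, and the part of other cell types in any Rab value was not tested. The region at the start of *Mettl3* does not measure the deletion, so the genotype labels were not checked by the data.

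On the authors' scale most Rab promoters were lower in *Mettl3*-HKO, as promoters in general were. The log2 ratio (*Mettl3*-HKO divided by control) had a median of −0.51 over the Rab promoters (middle 50% −0.76 to −0.36), against −0.57 for all 13163 promoters (−0.85 to −0.27). The ratio was below 0 for 38 and above 0 for 5 of the 43 genes (14.9% of all promoters were above 0). The interval lay wholly below 0 for 36 (74.3% of all promoters) and wholly above 0 for 2, *Rab21* and *Rab39* (7.62%). It spanned 0 for *Rab27a*, *Rab29*, *Rab31*, *Rab42* and *Rab5b*. Promoters at least 2-fold lower in *Mettl3*-HKO numbered 5 (15.9% of all promoters), namely *Rab40b*, *Rab12*, *Rab32*, *Rab30* and *Rab1b*, and 0 were at least 2-fold higher (3.84%). The shares of Rab promoters were 11.6% and 0%. The direction rests on the scale. After centring on the median of all promoters, 23 of the 43 Rab promoters lay above 0 and the median was 0.06, and with scaling to the reads in regions 22 lay above 0.

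Because of this, each Rab promoter was also set against the median log2 ratio of the 500 other promoters nearest to it in mean signal, a difference that does not change with the scaling of the libraries. The Rab promoters lay close to these, with a median difference of 0.07 (0.0032 for all promoters), 24 above and 19 below. At least 1.5-fold above promoters of the same signal were 3 genes (10.7% of all promoters), *Rab39*, *Rab21* and *Rab5b*, and at least 1.5-fold below was 1 (11.8%), *Rab40b*. The gene's own counting interval lay wholly above the median of those promoters for 16 genes (28.1% of all promoters) and wholly below for 11 (29.3%), which is 37.2% and 25.6% of the Rab promoters. The members ranged among themselves from −1.06 to 1.22.

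**Figure D2:**
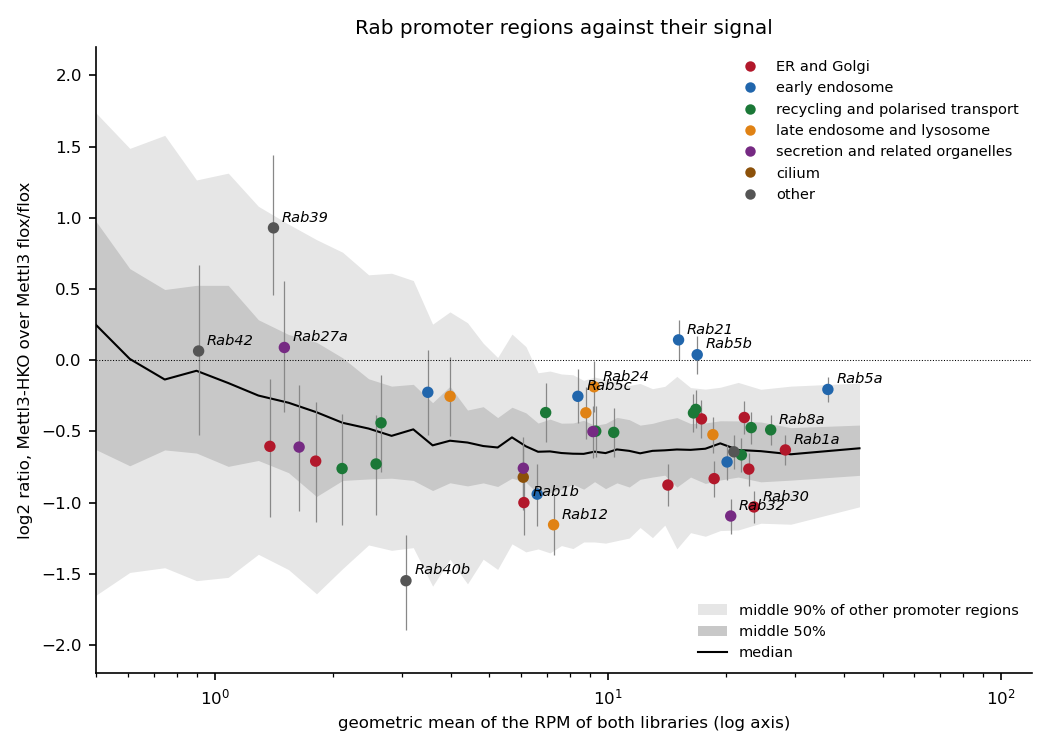
Log2 ratio (*Mettl3*-HKO divided by control) on the authors' scale (vertical axis) against the geometric mean RPM of both libraries (horizontal log axis) for 43 Rab promoter regions, coloured by role, with 95% counting intervals. The black line and the grey bands give the median, the middle 50% and the middle 90% of the other promoters in 40 bins of signal. *Rab21* and *Rab5b* lie above the outer band and *Rab40b* below it, while most points fall within the bands.

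By median difference the genes of the early endosome stood highest of the role groups. These groups were drawn up with earlier results of these data known, and their order was not tested. These GTPases receive cargo just after endocytosis. Of the 7, 5 lay above promoters of the same signal and 2 below. The counting interval was clear of the median of those promoters for the 5 above (28.1% of all promoters) and for the 2 below (29.3%). The median log2 ratio of the 7 was −0.23 and the median difference 0.41.

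*Rab5*, the GTPase that fuses endocytic vesicles with early endosomes and recruits EEA1 and the lipid kinase VPS34, is encoded by 3 genes, and all 3 promoters were in this upper set. *Rab5a* (chr17:53478603-53480064, centred in the 5′ UTR) had 2058 counts in controls and 1961 in *Mettl3*-HKO, the highest of any Rab promoter in both. *Rab5b* (chr10:128695795-128696795) had 879 and 992 counts, and *Rab5c* (chr11:100737921-100738594) had 483 and 445. The 3 together had 3420 and 3398 counts before scaling to library size. Their log2 ratios were −0.21 (interval −0.30 to −0.12), 0.04 (−0.09 to 0.17) and −0.25 (−0.44 to −0.07), and they lay 0.45, 0.68 and 0.41 above promoters of the same signal, at percentiles 94.6, 99.4 and 89 of those 500. When the median region was set to 0, the ratios of the 3 were 0.17, 0.42 and 0.12, so the sign of *Rab5a* and *Rab5c* turned with the scaling. Within the trio, *Rab5b* exceeded *Rab5a* by 0.24 and *Rab5c* by 0.29, differences whose counting intervals (0.09 to 0.40 and 0.06 to 0.52) exclude 0.

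*Rab21*, which traffics integrins through early endosomes, had 760 counts in controls and 922 in *Mettl3*-HKO (chr10:115314894-115316176). Its log2 ratio was 0.14 (interval 0.0029 to 0.28), and it lay 0.77 above promoters of the same signal, at percentile 99.6. *Rab31*, which moves cargo between the trans-Golgi and endosomes, had 198 and 186 counts and lay 0.34 above.

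The other early endosomal genes went the other way. *Rab22a*, a relative of *Rab5* that had the most enriched Rab promoter in controls (92.8-fold, and 56.6-fold in *Mettl3*-HKO), had 1360 and 910 counts and a difference of −0.12, and *Rab20*, a GTPase of phagosomes and endosomes, had 483 and 276 counts and a difference of −0.29.

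The genes that act between the ER and Golgi stood lowest among the larger role groups, again without a test. Of 10 promoters, 7 lay below promoters of the same signal and 3 above, the counting interval being clear of their median for 5 below (29.3% of all promoters) and 2 above (28.1%). At least 2-fold lower in *Mettl3*-HKO were 2 of the 10 (15.9% of all promoters). Their median log2 ratio was −0.74 and their median difference −0.24. *Rab1b*, which together with *Rab1a* carries vesicles from the ER to the Golgi, had 456 counts in controls and 250 in *Mettl3*-HKO, a log2 ratio of −1.0 (interval −1.23 to −0.78), and a difference of −0.40. *Rab1a* had 1859 and 1319 counts, a log2 ratio of −0.63 and a difference of 0.01. The paralogs thus differed by 0.37 (interval 0.13 to 0.61), and the promoter of *Rab1a* was 1.91 times as enriched as that of *Rab1b* in controls and 2.46 times in *Mettl3*-HKO.

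*Rab30*, a Golgi GTPase, had 1777 and 955 counts and a difference of −0.39, with a log2 ratio of −1.03 (interval −1.15 to −0.92), and its region also covers the start of the RefSeq transcript *4632427E13Rik*. *Rab18*, which coats lipid droplets and keeps them in contact with the ER, had 1017 and 608 counts, a log2 ratio of −0.88 and a difference of −0.24. *Rab2a*, which tethers vesicles at the Golgi, had 1313 and 810 counts and the same difference of −0.24, and *Rab33b*, which links the Golgi to autophagosome formation, had 1572 and 1016 counts and a difference of −0.12. The exceptions were *Rab6a*, which moves cargo back through the Golgi (1350 and 1122 counts, difference 0.24), *Rab43* (1054 and 870 counts, difference 0.22) and *Rab1a*. The region of *Rab6a* also covers the start of *Mrpl48*. *Rab34* and *Rab36*, with 64 to 121 counts in a library, had differences of −0.30 and −0.35 whose counting intervals include 0. The *Rab34* region described is centred 704 bp from the TSS. Its second region, centred 35 bp from the TSS, had a peak in controls alone, with 46 and 19 counts and a difference of −1.48, and its log2 ratio was −1.37 (interval −2.27 to −0.61). With promoter regions limited to 500 bp from the TSS, this region stood for *Rab34*.

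**Figure D3:**
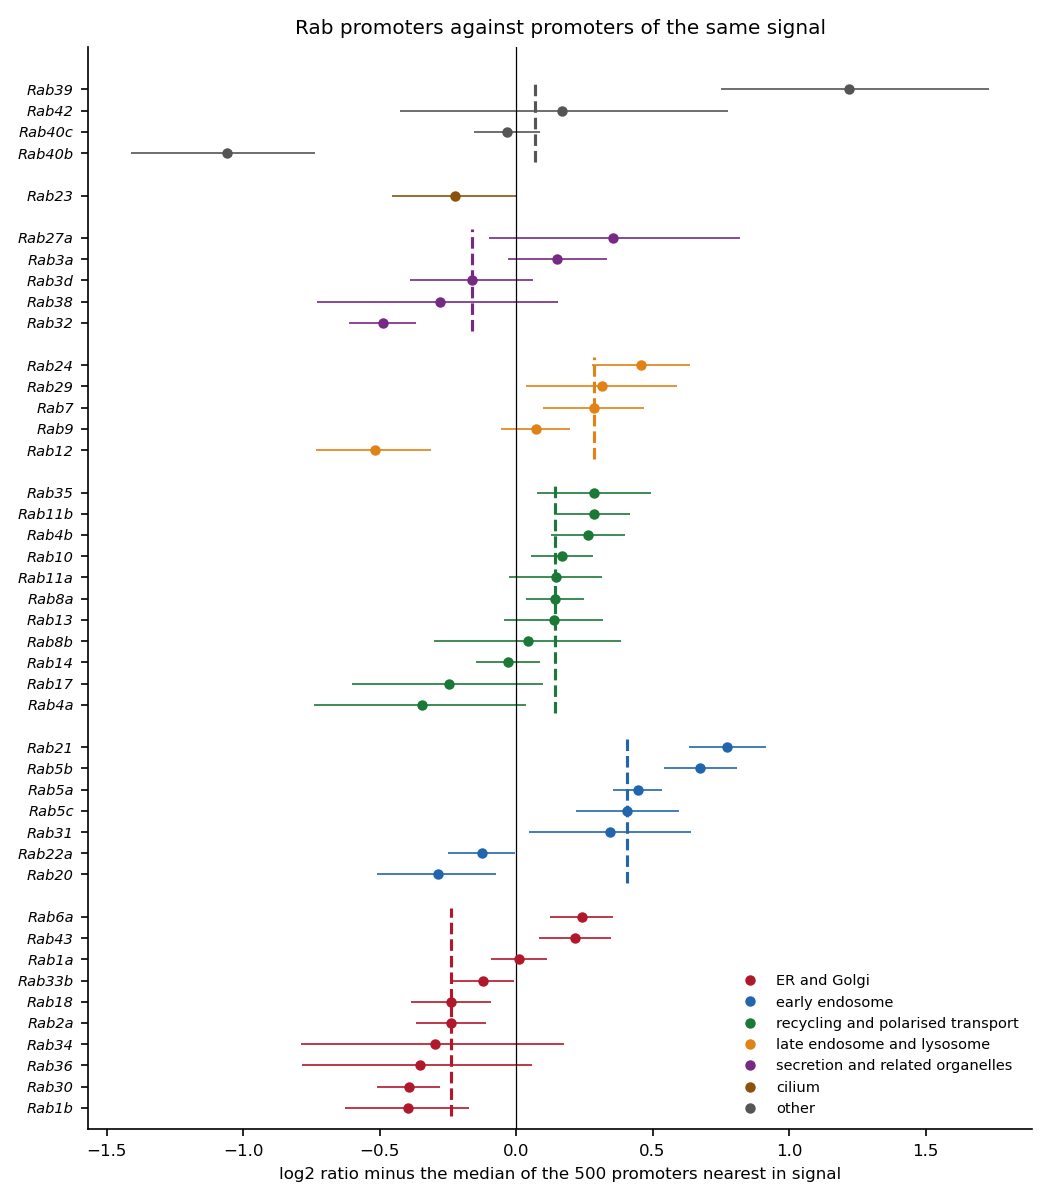
Difference of each Rab promoter from the median log2 ratio of the 500 promoters nearest in signal (horizontal axis, log2), grouped and coloured by role, with the 95% counting interval of the gene itself and a dashed line at the median of each group of more than 1 gene. The early endosomal group has its median at 0.41 and the ER and Golgi group at −0.24, and both groups hold members on either side of 0.

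Promoters of genes of recycling and polarised transport had log2 ratios between −0.76 and −0.35 on the authors' scale. None of the 11 was above 0 (14.9% of all promoters) and 0 were at least 2-fold lower (15.9%), and 8 lay above and 3 below promoters of the same signal, with a median difference of 0.14. *Rab11a* and *Rab11b*, which return receptors from recycling endosomes and carry transporters to the canalicular membrane, had 651 and 996 counts in controls and 503 and 861 in *Mettl3*-HKO. Their log2 ratios, −0.51 and −0.35, differed by −0.16 with an interval of −0.37 to 0.05. *Rab10*, which brings GLUT4 to the surface in fat cells and sits on lipid droplets in hepatocytes, had 1441 and 1140 counts and a difference of 0.17.

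The *Rab8* genes, which deliver vesicles to apical membranes, differed in level far more than in ratio. *Rab8a* had 1624 and 1271 counts, *Rab8b* 162 and 131. The *Rab8a* promoter was 5.85 times as enriched in controls and 5.66 times in *Mettl3*-HKO, while the log2 ratios were −0.49 and −0.44, a difference of −0.05 with an interval of −0.40 to 0.30. *Rab4a* and *Rab4b*, of the fast recycling route, had 144 and 991 counts in controls and 93 and 842 in *Mettl3*-HKO, log2 ratios of −0.76 and −0.37 that differed by −0.39 (interval −0.79 to 0.01).

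*Rab17*, an epithelial GTPase of transcytosis that is found in polarised cells such as hepatocytes, had 174 and 115 counts with a log2 ratio of −0.73 (interval −1.09 to −0.39). Its difference of −0.25 from promoters of the same signal was within its counting error. With 12.3-fold and 7.45-fold enrichment its promoter was among the lower ones. *Rab35*, *Rab13* and *Rab14* had differences of 0.29, 0.14 and −0.03. The *Rab35* region covers the start of *1110006O24Rik* as well, and that of *Rab13* the start of *Rps27*.

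Of the 5 promoters of late endosomal and lysosomal genes, 4 lay above promoters of the same signal and 1 below, and the median difference was 0.29. *Rab7*, which drives the fusion of late endosomes, autophagosomes and lipid-laden vesicles with lysosomes, had 527 and 448 counts with a log2 ratio of −0.37 (interval −0.56 to −0.19) and a difference of 0.29. *Rab24*, linked to the late steps of autophagy, had 519 and 501 counts and a difference of 0.46, in a region that also covers the start of *Prelid1*. *Rab29*, a binding partner of LRRK2, and *Rab9*, which returns receptors from late endosomes to the Golgi, had differences of 0.31 and 0.07.

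*Rab12*, which directs receptors from recycling to lysosomes, was the exception. Its promoter (chr17:66518641-66519929, centred in intron 1) had 573 counts in controls and 282 in *Mettl3*-HKO, a log2 ratio of −1.16 (interval −1.37 to −0.95) and a difference of −0.52. It stood at percentile 10 of promoters of the same signal.

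Genes of regulated secretion and lysosome-related organelles had 5 promoters of 10 genes, whose median difference was −0.16 and whose median log2 ratio was −0.61. *Rab32*, which acts in melanosomes, mitochondria and autophagy, had 1585 and 815 counts (chr10:10557170-10558450), a log2 ratio of −1.09 (interval −1.22 to −0.97) and a difference of −0.49. Its relative *Rab38* was far weaker, with 106 and 76 counts, and had a difference of −0.28 within its counting error. *Rab3a* and *Rab3d*, of regulated exocytosis, had 575 and 418 counts in controls and 446 and 271 in *Mettl3*-HKO, and their log2 ratios of −0.50 and −0.76 differed by 0.26 (interval −0.03 to 0.54).

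The ends of the whole range were held by genes outside these groups. *Rab40b*, whose product has a SOCS box and joins a Cullin5 ubiquitin ligase, had 276 counts in controls and 103 in *Mettl3*-HKO (chr11:121387878-121388657). Its log2 ratio of −1.55 (interval −1.90 to −1.23) and its difference of −1.06 were the lowest of the 43, at percentile 1.6. The paralog *Rab40c* had 1381 and 971 counts and a ratio of −0.64, so that the pair differed by −0.91 (interval −1.25 to −0.56), the widest gap of the 9 pairs within the 7 numbered subfamilies with at least 2 promoters. *Rab39*, which acts in endosomal and autophagic traffic of myeloid and other cells, had 53 and 112 counts (chr9:53706077-53706702), a log2 ratio of 0.93 (interval 0.46 to 1.44) and a difference of 1.22. Its percentile of 94.6 equalled that of *Rab5a*, since the middle 50% of promoters of its signal ran from −0.75 to 0.19, against −0.83 to −0.49 for *Rab5a*. *Rab23*, a ciliary regulator of Hedgehog signalling, had 427 and 265 counts and a difference of −0.22, and *Rab42*, with 46 and 53 counts, one of 0.17.

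For 7 promoter regions the start of another RefSeq gene was found inside, and reads there cannot be assigned to 1 gene. Besides the genes already named these are *Rab11b*, shared with *Gm17251*, and *Rab23*, shared with *Gm32229*. The 7 had a median difference of 0.24 and the other 36 one of 0.03. Starts were known only for genes with a RefSeq promoter window, so the 36 may hold further shared regions. Among them, other RefSeq genes overlap the regions of *Rab5b* (*Pmel*), *Rab22a* (*Ppp4r1l-ps*), *Rab20* (*E230013L22Rik*), *Rab12* (*Gm41608*) and *Rab11a* (*n-TQctg9*).

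The proteins that switch and carry Rab GTPases were listed separately, and 51 of 64 had a promoter region. Their median log2 ratio was −0.55 and their median difference −0.03, with 24 above and 27 below promoters of the same signal, 5 at least 2-fold lower (15.9% of all promoters) and 0 at least 2-fold higher (3.84%). The lowest were *Tbc1d4* (AS160, a GTPase-activating protein for RAB10; 686 and 302 counts, log2 ratio −1.32), *Dennd4c* (an exchange factor for RAB10; 1666 and 739 counts, −1.31) and *Trappc10* (a subunit of the TRAPP exchange complex; 971 and 467 counts, −1.19). At the other end were *Tbc1d1* (42 and 69 counts, 0.57), *Mical1* (25 and 40 counts, 0.52) and *Lrrk2*, the kinase of several Rab proteins (76 and 107 counts, 0.35), all weak promoters, and only for *Tbc1d1* did the interval exclude 0 (0.01 to 1.17).

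Distal Rab regions were weaker and more varied. The 49 regions lay 1.01 to 157 kb from the TSS, with a median distance of 10.9 kb, 13 upstream and 36 downstream, and 24 were placed inside the Rab gene itself by the authors' annotation. Their median count was 64 in both libraries, with 8 to 960 counts in controls and 13 to 554 in *Mettl3*-HKO. The median log2 ratio was −0.22 (all 55162 distal regions −0.27). Below 0 were 31 and above 0 were 18 (40.2% of all distal regions), with the interval wholly below 0 for 20 (42.5%) and wholly above 0 for 10 (24.5%). At least 2-fold lower in *Mettl3*-HKO were 10 (18.8% of all distal regions) and at least 2-fold higher 7 (15.6%). These shares, 20.4% and 14.3% of the Rab distal regions, were near those of distal regions in general. Set against distal regions of the same signal, 28 lay below and 20 above, with a median difference of −0.22. The ratio fell with signal, the 25 stronger regions having a median of −0.56 and the 24 weaker ones 0.11. Distal regions in general did likewise, with a median of 1.58 in the weakest and −0.64 in the strongest of 40 bins of signal. Peaks were called in both libraries at 28 regions (57.1%, against 56.1% of all distal regions), only in the control library at 9 (18.4%, against 19.1%) and only in *Mettl3*-HKO at 12 (24.5%, against 24.9%). The 9 had log2 ratios of −2.90 to −0.0025 and the 12 of 0.23 to 3.09. A region with a peak in 1 library alone enters through that library, which favours a ratio on its side.

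**Figure D4:**
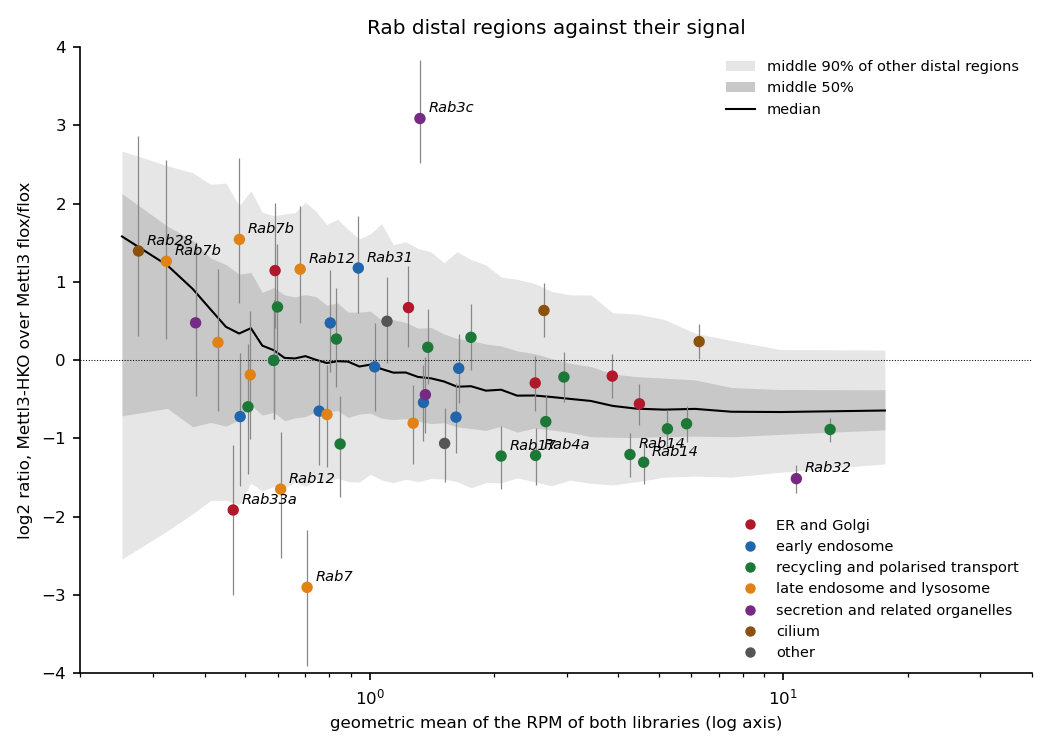
Log2 ratio (*Mettl3*-HKO divided by control) on the authors' scale (vertical axis) against the geometric mean RPM (horizontal log axis) for the 49 distal Rab regions, coloured by role, with 95% counting intervals and with the median, middle 50% and middle 90% of other distal regions in grey. The region in *Rab3c* at 3.09 and the one upstream of *Rab7* at −2.90 lie far outside the bands, and the 5 regions of highest signal all lie below 0 except that of *Rab28*.

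The distal region most enriched in controls belonged to *Rab32* and was lower in *Mettl3*-HKO, as its promoter was. It lay 21.8 kb upstream (chr10:10579771-10580301), was enriched 93.6-fold and 32.8-fold, more than the *Rab32* promoter in both libraries, and had 960 and 369 counts with a log2 ratio of −1.51 (interval −1.69 to −1.34). The strongest by summed RPM was 1 of 5 regions assigned to *Rab14*, the most of any Rab gene. It lies over exon 38 of the neighbouring gene *Cntrl*, 29.0 kb from the *Rab14* start, with 932 and 554 counts and a ratio of −0.89, and a second one 30.3 kb away in intron 36 of *Cntrl* had 381 and 169 counts and a ratio of −1.30. *Rab4a* had a region 7.68 kb downstream with 375 and 224 counts (−0.88), and *Rab8a* one in its intron 2 with 408 and 255 counts (−0.81). The region near *Rab28*, a GTPase of photoreceptor cilia, went the other way, with 304 and 394 counts 56.4 kb from the TSS and a ratio of 0.24 (interval 0.02 to 0.46).

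The largest fall was 17.3 kb upstream of *Rab7* (chr6:88062436-88062769), where a peak was called only in controls. It had 101 counts in that library and 14 in *Mettl3*-HKO, a log2 ratio of −2.90 (interval −3.91 to −2.17). The neighbouring regions, 6.76 and 8.79 kb away, had 88 and 55 counts and 129 and 77 counts, ratios of −0.80 and −0.87, so the fall exceeded that of its surroundings. The *Rab7* promoter itself was at −0.37. The next lowest were a region 13.1 kb downstream of *Rab33a* (47 and 13 counts, −1.91) and one 29.5 kb downstream of *Rab12* (56 and 19 counts, −1.65). At both, too, a peak was called only in controls.

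The largest rise was in intron 3 of *Rab3c*, a GTPase of synaptic vesicles with no promoter region here, 157 kb from its TSS (chr13:110122704-110123212). It had 23 counts in controls and 223 in *Mettl3*-HKO, where alone a peak was called, a log2 ratio of 3.09 (interval 2.52 to 3.83). The nearest other regions, 59.9 and 246 kb away, went the other way, at −1.19 and −2.56. Of the regions with at least 50 counts in both libraries together, the next highest were weak. A region in intron 1 of *Rab7b*, a lysosomal GTPase best known from myeloid cells, had 14 and 47 counts (1.54), one in intron 1 of *Rab31* 32 and 81 (1.18), one in intron 1 of *Rab12* 23 and 58 (1.16) and one in intron 1 of *Rab30* 20 and 50 (1.14). Except at *Rab31*, a peak was called at these only in *Mettl3*-HKO, so they entered through the library where they are higher.

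Promoter and distal regions were also set side by side within genes. Of the 24 genes with both, the promoter and the median of the distal regions had the same sign in 19 on the authors' scale (66.1% of all 7323 genes with both). With the median region set to 0 this held for 14 (58.5%). *Rab30* had its promoter at −1.03 and both intronic regions above 0, with a median of 0.91, and *Rab23* had −0.82 at the promoter and 0.63 in intron 4 (111 and 190 counts). *Rab17* had −0.73 at the promoter and −1.22 in intron 1 (167 and 78 counts, interval −1.64 to −0.84).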

How the data were processed

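ATAC-seq reads of 1 pooled *Mettl3* flox/flox and 1 pooled *Mettl3*-HKO liver library were, per the authors' methods and the submitters' notes, aligned with BWA to GRCm38, and peaks were called with MACS2 in each library with duplicates kept. The counting of reads on regions and any Tn5 shift of read ends are not given in the sources used here. The authors deposited, for each merged region, the raw count, the RPM and the fold enrichment (a ratio of reads per base) of each library, and a log2 fold change of their own, which was not used.

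Of 74821 rows, 5272 repeats of a region were left out. The RPM equal the count plus 1 over totals of 52826202 and 58038305 reads, and log2 ratios were recomputed on this scale. Promoters of the same signal were the 500 others nearest in mean log2 RPM. Intervals of pair differences are normal approximations to counting error. No test was made.

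Members, role lists, regulators and markers were chosen with earlier results of these data known. The genes named were the 5 strongest, weakest, highest and lowest promoters, all subfamilies, genes with known roles in hepatocytes, the 5 strongest, highest and lowest distal regions of at least 50 summed counts, and the 3 highest and lowest regulators, and further members were named from their values. Scripts were tested on simulated data. The software was matplotlib 3.10.9, scipy 1.17.1, pandas 2.3.3 and numpy 2.4.6 under Python 3.11.15. Alternatives covered scaling, added reads, signal filter, promoter window, fold and region choice.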

Additional observations from a re-analysis of the deposited data

How the results depend on the processing

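No paired analysis was possible because each group is 1 library. The scaling decided the direction of the medians. Centring on the median of all regions, centring on the median of promoter regions and scaling to the reads in regions moved the median log2 ratio of Rab promoters from −0.51 to −0.13, 0.061 and 0.0044, that of distal regions from −0.22 to 0.16, 0.35 and 0.30, and that of regulator promoters from −0.55 to −0.17, 0.020 and −0.037. Under the same 3 scalings, Rab promoters at least 2-fold lower went from 5 to 1, 0 and 1 and higher from 0 to 1, 1 and 1, and distal regions lower from 10 to 4, 3 and 4 and higher from 7 to 10, 13 and 11. With a 1.5-fold threshold, 20 promoters and 20 distal regions were lower and 1 promoter and 10 distal regions higher. With 10 reads added, 2 distal regions were at least 2-fold higher. In the upper 50% of signal the distal median was −0.78, with 6 regions lower and 0 higher, and the regulator median −0.63. Within 500 bp of the TSS the distal median was −0.44 and the regulator median −0.58. The median difference from promoters of the same signal ran from 0.05 to 0.09 over its alternatives. Depth limits the weak regions, as at *Rab39*, whose 53 and 112 counts leave an interval of 0.46 to 1.44.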
